A study of Homo sapiens with 24 samples.

Results

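The response of gene expression to Acetalax was compared between the PC3 parental line and cells that the labels call its chronic-exposure (CE) derivative, a parentage that their expression goes against. PC3 is a human prostate cancer cell line that was established from a bone metastasis and grows without androgen. For every gene, the log2 change in CE cells (Acetalax over control) minus the log2 change in parental cells was tested in 1 model, over all genes. A positive value means that the CE response was higher than the parental response, and a negative value that it was lower. The comparison used the 12 libraries labelled PC3 of the 24 libraries in the series, and each result was also computed from 11 libraries, without the first treated CE library, which stood apart from its replicates.

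The 4 groups held 3 libraries each. Parental control and CE control cells were untreated, and parental Acetalax and CE Acetalax cells had received 10 µM Acetalax for 4 h. Per the labels, the CE cells came from parental cells that were passaged in rising Acetalax until they were stably resistant and then grown for 2 weeks without it, a history that both CE groups share. All 4 groups were grown in F-12 medium with fetal bovine serum, and the labels give the same batch for every library. The labels call the samples biological triplicates without naming separate cultures, so p-values measure the spread between these samples.

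Acetalax (oxyphenisatin acetate) is a compound of the laxative class whose activity against cancer cells the study links to TRPM4. TRPM4 is a channel of the plasma membrane that is opened by intracellular calcium and lets sodium and potassium pass, but not calcium. Cells answer a disturbance of their proteins or ions within hours through a few transcription programmes. Heat shock factor induces chaperones when proteins misfold. Serum response factor and AP-1 induce the immediate early genes, many of which are then shut off by their own products, by phosphatases of the ERK pathway and by decay factors of the ZFP36 family.

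Totals of expected counts lay between 40160832 and 57560358 per library. The library CE Acetalax 1 lay at a root-mean-square log2 distance of 0.665 from the other 2 of its group. CE Acetalax 2 and 3 lay at 0.359 and 0.385, distances that include CE Acetalax 1. Libraries of the other groups lay at 0.14 to 0.229. The highest correlation of CE Acetalax 1 within its group was 0.980, against at least 0.992 elsewhere. The control libraries of the 2 kinds differed in cell identity. Levels are in TPM, an abundance scaled for transcript length and to a fixed total per library. The summed level of 17 epithelial markers was 7767 to 8933 in parental controls and 30.1 to 33.8 in CE controls. That of 9 fibroblast markers was 31.6 to 39.5 and 3150 to 3157, and that of 10 melanocytic markers 18.0 to 23.0 and 386 to 404. Of the 10 melanocytic markers, 8 averaged below 1 TPM in CE controls, so few genes carried that sum. CTNNA1, a gene known to be deleted in PC3, stood at 1.47, 1.42 and 0.24 TPM in parental controls and at 167, 173 and 169 TPM in CE controls. Mean log2 profiles of the CE controls correlated at 0.658 with those of the PC3 parental controls and at 0.933 with those of the CE controls of LNCaP, the other prostate cancer line of the series, over 13116 genes. These values go against the label of the CE cells as a derivative of PC3, and their parent line is in doubt. In what follows, CE means only the libraries labelled PC3 CE, and each difference compares those cells with PC3 parental cells. The part of these differences between the cells in any difference of response was not tested, and in bulk libraries fewer cells of a kind and less RNA per cell cannot be told apart.

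With all 12 libraries, 1610 of 20049 genes tested (8.03%) differed in their response (edgeR's quasi-likelihood test, Benjamini-Hochberg adjusted p below 0.05). The CE response was higher for 921 (4.59% of all tested) and lower for 689 (3.44%), and 523 differed by at least 2-fold (2.61%). The count fell to 758 without parental Acetalax 2, the lowest when 1 library was left out. Without CE Acetalax 1, 4594 of 20459 genes differed (22.5%), of which 2321 were higher (11.3%) and 2273 lower (11.1%). The treated CE group then held only CE Acetalax 2 and 3. Because the omitted library was chosen for standing apart, p-values with 11 libraries leave out the spread that it adds. Of the 1610, 1603 were called with the same sign in both (8% of 20046 genes tested in both), which is 99.6% of the first set and 34.9% of the second. The balance of directions depended on the scale. On log2(TPM + 1), tested with limma, 445 genes were higher and 776 lower with 12 libraries, and 1125 higher and 2075 lower with 11. Higher calls thus made up 57.2% of calls on counts and 36.4% on TPM with 12 libraries, and 50.5% and 35.2% with 11.

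Across all genes tested, the 2 responses showed little correlation. Their log2 values correlated at 0.045 over 20049 genes with 12 libraries and at 0.03 over 20459 genes with 11. No library enters both responses, and genes are not independent of each other. Most genes were called in neither response, so the value mainly covers genes without a called response. The correlation among responding genes alone, and the part of noise in the low value, were not tested. With 11 libraries, 15 of 26 cholesterol synthesis genes rose in parental and 19 in CE cells. Of 29 heat shock genes, 20 and 5 rose. Over all genes, 27.3% were called in parental and 16.4% in CE cells, in either direction. Of 9624 genes with at least 5 TPM on average in a group of each kind, 1183 (12.3%) were called in both analyses, 638 higher (6.63%) and 545 lower (5.66%). Taking a log2 change of 0.5 in the 11-library model as a response, 198 of the 545 lower genes had responded in parental cells alone, 70 in CE cells alone, 6 in opposite directions and 271 in neither by that size. Among the 638 higher genes, 181 had responded in parental cells alone, 116 in CE cells alone, 42 in opposite directions, 4 in the same direction and 295 in neither. Another 420 genes, 276 higher and 144 lower, were called in both analyses but did not reach 5 TPM in both kinds of cells.

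**Figure D1:**
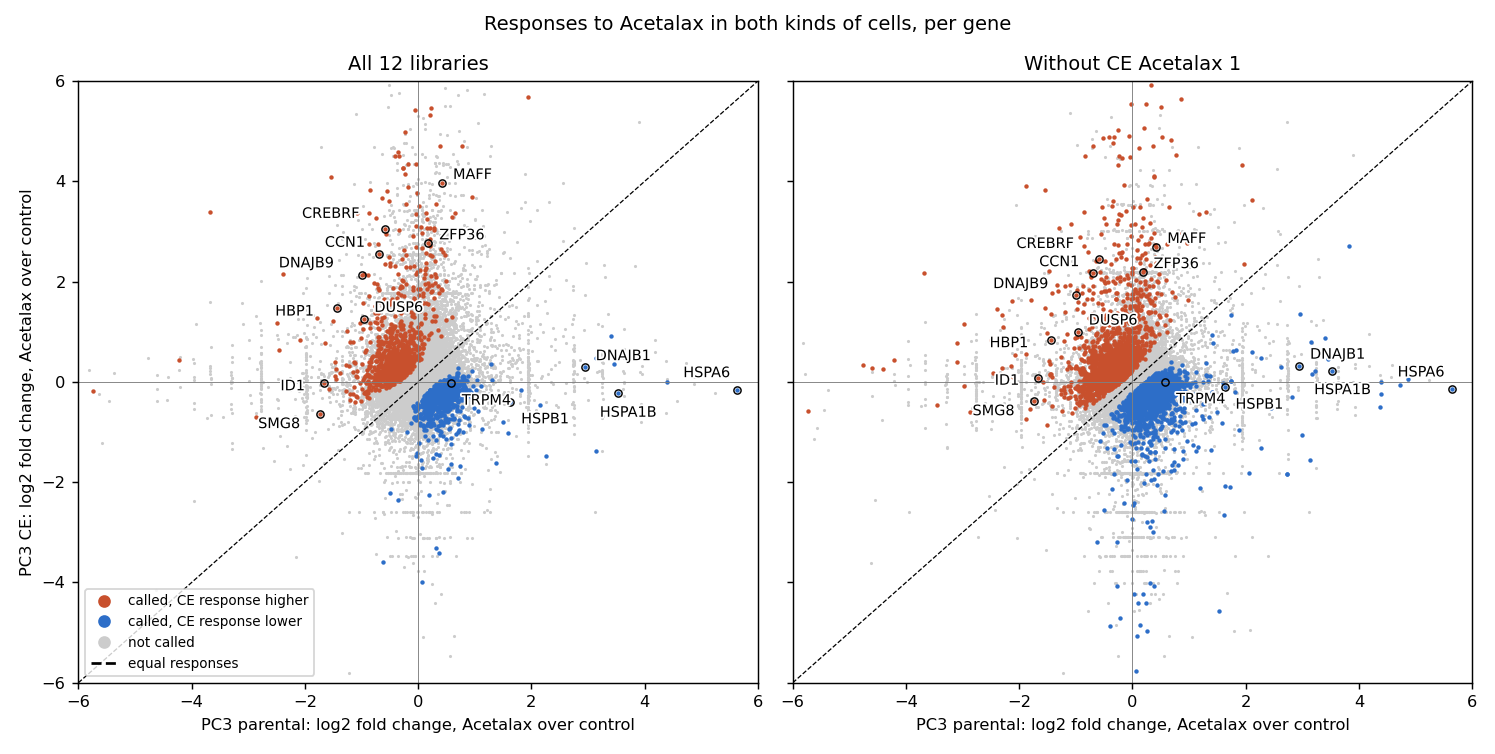
Log2 fold change under Acetalax in parental cells (x axis) against CE cells (y axis) for each gene tested, with all 12 libraries on the left and without CE Acetalax 1 on the right. Genes with a called difference lie off the dashed line of equal responses: HSPA6, HSPA1B and DNAJB1 far to the right at CE values near 0, MAFF and ZFP36 high at parental values near 0, and DNAJB9 and HBP1 with a fall in parental and a rise in CE cells. Outside the axes lie 35 genes on the left and 40 on the right.

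TRPM4 itself was measured at 50.6, 43.0 and 42.3 TPM in the parental controls and at 69.9, 63.7 and 65.7 TPM after Acetalax. CE cells held 16.5, 19.4 and 16.2 TPM in controls and 14.6, 15.4 and 16.4 TPM after Acetalax. The treated parental libraries all lay above their controls, the 2 CE groups overlapped, and every CE library lay below every parental one. The difference in response was -0.60 ± 0.11 on the log2 scale (SE; adjusted p = 0.00926, edgeR), and -0.58 ± 0.10 without CE Acetalax 1 (adjusted p = 0.000641). It kept its direction and its call under each alternative run. Of 12 TRPM channel and SUR1 partner genes, 8 were tested. Of these, 1 was called lower with 12 libraries and 3 without CE Acetalax 1, against 3.44% and 11.1% of all genes tested. The added pair were TRPM2, another calcium-gated cation channel, at -1.48 ± 0.44, and the potassium channel subunit KCNJ11 at -0.63 ± 0.19.

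Of 29 genes of the heat shock response, 6 had a lower CE response with 12 libraries and 1 a higher one. In parental cells 10 rose and 1 fell (7.8% of all genes tested were called in either direction), and in CE cells 5 rose and 1 fell (8.15%). HSPA6, HSPA1B and HSPB1 rose in parental cells and did not pass the test in CE cells, and DNAJB1 rose in both, by less in CE cells. For 3 of the 6, the 150 bases before a transcription start are shown, from RefSeq on GRCh38.p14, chosen as 2 windows with and 1 without the element that heat shock factor binds. Capitals mark a heat shock element of 3 units, GAANNTTCNNGAA or TTCNNGAANNTTC, which are the same motif read on the 2 strands.
HSPA6 promoter, chr1:161524390-161524539, plus strand: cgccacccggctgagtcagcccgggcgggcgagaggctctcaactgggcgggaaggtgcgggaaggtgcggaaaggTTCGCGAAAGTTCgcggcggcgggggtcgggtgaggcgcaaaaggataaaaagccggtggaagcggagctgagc
SERPINH1 promoter, chr11:75562103-75562252, plus strand: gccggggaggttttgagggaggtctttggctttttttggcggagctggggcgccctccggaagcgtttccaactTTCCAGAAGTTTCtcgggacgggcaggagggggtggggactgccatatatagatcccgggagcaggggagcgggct
HSPB1 promoter, chr7:76302523-76302672, plus strand: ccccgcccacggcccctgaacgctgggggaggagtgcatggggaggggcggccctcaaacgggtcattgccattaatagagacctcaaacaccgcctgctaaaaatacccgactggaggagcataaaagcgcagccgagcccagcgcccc
The element lay at -74 to -62 from the start of HSPA6 and at -76 to -64 from the first of 2 listed starts of SERPINH1, while these letters were not in the HSPB1 window nor in any of the 3 DNAJB1 windows. Within 250 bases before a start, 155 of 35116 promoters in the table (0.441%) held the motif. Among the 29 genes of the heat shock list, 25 had an entry and 8 of these held it (32%), among them 2 of the 7 called with 12 libraries (28.6%). A gene was counted if any of its listed starts held the motif, while the share over the table is per promoter, so the units differ. A match is a description of the sequence and not a bound site.

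HSPA6 encodes a strictly inducible cytosolic HSP70. It stood at 6.40, 5.60 and 5.33 TPM in parental controls and at 269, 277 and 306 TPM in treated parental libraries, but at 0.82, 0.71 and 0.56 TPM in CE controls and 0.57, 0.82 and 0.40 TPM in treated CE libraries. The parental groups were far apart and the CE groups overlapped. Its difference in response was -5.80 ± 0.29 (adjusted p = 2.71e-06, edgeR), and -5.78 ± 0.29 without CE Acetalax 1 (adjusted p = 5.06e-09).

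HSPA1B, the main stress-induced HSP70, went from 201, 176 and 207 TPM in parental controls to 2030.1, 2073 and 2548 TPM under Acetalax. CE cells had 54.8, 52.8 and 52.0 TPM in controls and 11.3, 61.1 and 57.5 TPM under Acetalax. Here CE Acetalax 1 was the lowest library of all, and the other 2 lay slightly above the CE controls. The response differed by -3.75 ± 0.62 (adjusted p = 0.00506, edgeR), and by -3.30 ± 0.13 without CE Acetalax 1. HSPA1B shares nearly all of its sequence with HSPA1A, so reads of the pair are divided by estimation and their separate values are uncertain. HSPA1A was at 229, 217 and 239 and then 2899.7, 2945 and 3585 TPM in parental cells, against 0.63, 0.96 and 1.09 and then 1.43, 6.61 and 3.53 TPM in CE cells. Its difference passed the test only without CE Acetalax 1 (-1.11 ± 0.33, adjusted p = 0.0228, edgeR), with -1.51 ± 0.60 and an adjusted p of 0.155 for all 12.

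DNAJB1, the HSP40 that loads clients onto HSP70, had 132, 129 and 133 TPM in parental controls and 883, 888 and 982 TPM under Acetalax. CE libraries held 85.1, 83.9 and 84.0 TPM in controls and 92.9, 99.5 and 103 TPM under Acetalax. Treated libraries lay above controls in both kinds, by a log2 change of 2.94 in parental and 0.29 in CE cells. The difference was -2.65 ± 0.09 (adjusted p = 1.28e-07, edgeR) and -2.63 ± 0.08 without CE Acetalax 1.

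HSPB1 is the small heat shock protein HSP27. It stood at 466, 364 and 529 and then 1256, 1247 and 1168 TPM in parental cells. In CE cells it stood at 491, 472 and 491 and then 187, 444 and 427 TPM. Treated parental libraries were all above, and treated CE libraries all below, their controls, and the difference was -2.02 ± 0.35 (adjusted p = 0.00668, edgeR; -1.73 ± 0.15 without CE Acetalax 1).

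Of the 29 heat shock genes, 6 had a lower and 1 a higher CE response with 12 libraries, and 17 and 2 without CE Acetalax 1. Over all genes tested, 3.44% were lower and 4.59% higher with 12 libraries, and 11.1% and 11.3% with 11. The list was chosen with earlier results of these data known, so its distance from these shares is not a test. The median difference over the list was -0.47 and -0.44, against 0.037 and -0.0076 over all genes tested. The other lower calls in both were SERPINH1, the collagen chaperone (-0.52), and HSPA1L (-1.36), whose highest library had 2.28 TPM. Its higher call was DNAJB4 (0.88 ± 0.15; adjusted p = 0.00688, edgeR), which held 25.2, 24.2 and 25.5 TPM in CE controls and 43.8, 38.0 and 42.2 TPM in treated CE libraries. Without CE Acetalax 1 the lower calls also took in the constitutive HSP70 HSPA8 (-0.64), HSP90AA1 (-0.94), the HSP70 cofactor BAG3 (-0.40), the mitochondrial HSPE1 (-0.51) and the polyubiquitin gene UBB (-0.44), and HSPA4 was higher (0.41). In CE Acetalax 1 several of these lay far below the CE controls. HSP90AA1 stood at 608, 595 and 585 TPM in CE controls, at 193 TPM in CE Acetalax 1 and at 528 and 567 TPM in the other 2.

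**Figure D2:**
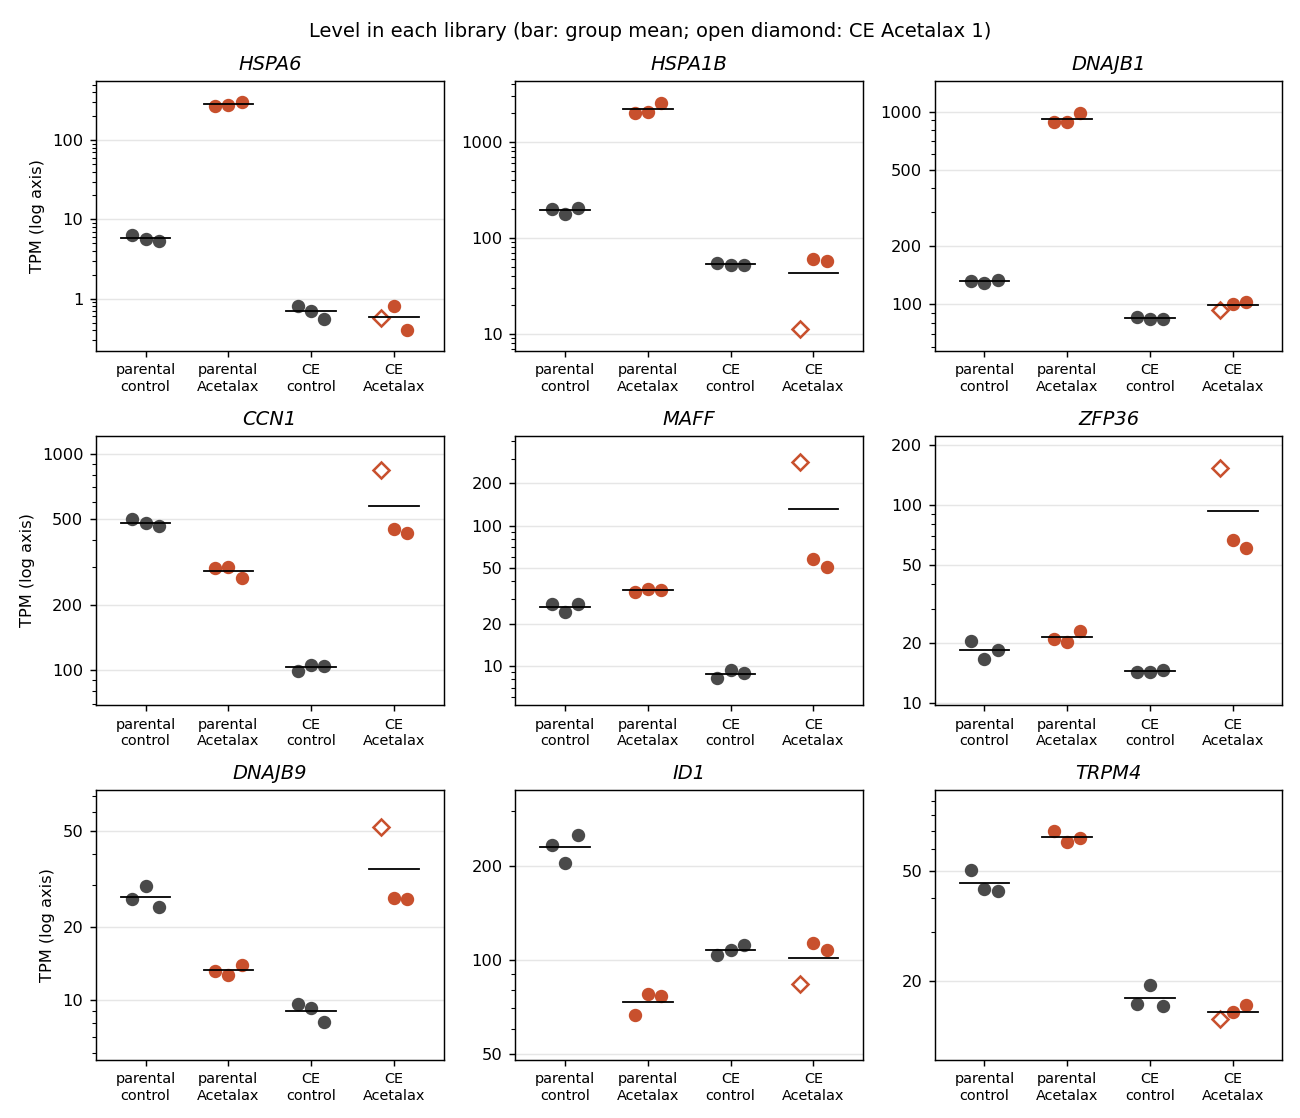
TPM on a log axis in each of the 12 libraries for 9 genes, with controls in grey, Acetalax libraries in red, the group mean as a bar and CE Acetalax 1 as an open diamond. HSPA6, HSPA1B, DNAJB1 and TRPM4 lie higher in treated than in control parental cells, with treated CE libraries 2 and 3 close to their controls. For CCN1, MAFF, ZFP36 and DNAJB9 all 3 treated CE libraries lie above the CE controls, the diamond highest.

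The opposite difference, a CE response above the parental one, was found in many immediate early genes and in their feedback genes. Beside the counts per list that follow stand the shares over all genes tested. These were 4.59% higher and 3.44% lower with 12 libraries, and 11.3% and 11.1% with 11. The lists were chosen with earlier results of these data known, so a list above these shares is described and not tested. The next sequences were chosen from called genes of these lists because they hold the binding element of CREB/ATF factors (TGACGTCA) or of serum response factor (the CArG box), which most promoters of the lists do not, and capitals mark a match.
MAFF promoter, chr22:38201844-38201993, plus strand: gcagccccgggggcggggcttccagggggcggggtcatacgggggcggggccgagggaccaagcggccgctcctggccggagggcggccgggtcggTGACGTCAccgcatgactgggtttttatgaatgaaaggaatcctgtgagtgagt
ZFP36L1 promoter, chr14:68793417-68793566, minus strand: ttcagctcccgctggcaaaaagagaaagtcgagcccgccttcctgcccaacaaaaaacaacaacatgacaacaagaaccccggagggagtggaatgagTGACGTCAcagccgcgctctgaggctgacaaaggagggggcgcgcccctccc
EGR2 promoter, chr10:62816367-62816516, minus strand: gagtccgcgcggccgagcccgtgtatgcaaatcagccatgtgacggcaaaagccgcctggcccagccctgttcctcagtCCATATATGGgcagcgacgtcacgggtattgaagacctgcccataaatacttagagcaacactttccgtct
The cAMP response element lay at -54 to -47 in MAFF and at -52 to -45 before the second listed start of ZFP36L1, and the CArG box at -71 to -62 before the third listed start of EGR2. Within 250 bases before a start, 578 of 35116 promoters (1.65%) held TGACGTCA and 407 (1.16%) a CArG box, on either strand. TGACGTCA was found in 2 of 8 AP-1 genes with an entry, in 1 of 11 mRNA decay genes and in 0 of 16 other immediate early genes, and a CArG box in 3 of those 16. These counts are per gene, over any of its listed starts, while the shares before them are per promoter.

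Among the 11 FOS, JUN and MAF genes of AP-1, 4 had a higher CE response and 0 a lower one, and 8 and 0 without CE Acetalax 1. FOS stood at 0.91, 0.54 and 0.68 TPM in parental controls and 2.59, 3.07 and 2.72 TPM after Acetalax, and at 7.02, 7.03 and 7.26 TPM in CE controls and 693, 133 and 111 TPM after Acetalax. Treated libraries were above controls in both kinds, and the treated CE libraries were the highest of the 12. The difference was 3.74 ± 0.96 (adjusted p = 0.0363, edgeR), and 2.37 ± 0.25 without CE Acetalax 1 (adjusted p = 1.17e-05).

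MAFF, a small MAF partner of AP-1 and CNC factors, stood at 27.6, 24.4 and 27.5 TPM in parental controls and 33.7, 35.4 and 34.8 TPM under Acetalax. CE libraries went from 8.13, 9.41 and 8.86 to 283, 57.6 and 51.1 TPM. Its treated libraries also lay above controls in both kinds, and the difference was 3.55 ± 0.74 (adjusted p = 0.0141, edgeR) or 2.28 ± 0.11 without CE Acetalax 1. FOSB (2.72 ± 0.68) and JUNB (1.73 ± 0.38) were the other 2 called with all libraries. JUN reached 258 TPM in CE Acetalax 1 against 20.4 and 13.2 TPM in CE Acetalax 2 and 3 and 4.65, 4.81 and 5.59 TPM in CE controls. With 12 libraries its difference of 3.64 ± 1.18 missed the threshold (adjusted p = 0.0849, edgeR), while with 11 it was 1.09 ± 0.17 (adjusted p = 0.00037).

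Of 24 other immediate early genes, 11 were higher and 0 lower with 12 libraries, and 17 and 1 with 11, with median differences of 1.41 and 1.31. CCN1 encodes a secreted matrix protein that is a target of serum response factor and of YAP. Its level was 498, 477 and 464 TPM in parental controls and 296, 301 and 268 TPM under Acetalax, against 99.7, 105 and 105 and 838, 450.0 and 428 TPM in CE cells. All treated parental libraries lay below, and all treated CE libraries above, their controls. The difference was 3.24 ± 0.30 (adjusted p = 0.000383, edgeR), and 2.86 ± 0.09 without CE Acetalax 1 (adjusted p = 5.11e-11).

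IER3, an early gene that protects against apoptosis in many cells, gave 622, 541 and 628 and then 456, 468 and 457 TPM in parental cells. In CE cells it gave 17.8, 18.1 and 19.6 and then 85.7, 41.5 and 42.1 TPM, a difference of 2.05 ± 0.33 (adjusted p = 0.00463, edgeR). IER2 (1.43), GADD45B (1.38), CSRNP1 (2.23), KLF6 (1.25) and the zinc-finger repressor KLF10 (2.58) were likewise called higher. EGR2 and NR4A3 lay below 5 TPM in every library but CE Acetalax 1. EGR2 had 0.40, 0.26 and 0.19 TPM in CE controls and 21.5, 1.86 and 1.16 TPM in treated CE libraries, and its parental libraries all lay at or below 1.48 TPM. EGR1, at 11.8, 10.9 and 10.7 TPM in CE controls and 600.0, 122 and 98.7 TPM under Acetalax, was called only with 11 libraries (2.09 ± 0.49), and its parental libraries lay at or below 0.27 TPM.

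NR4A1 went against the group without CE Acetalax 1. It had 10.7, 9.63 and 9.72 TPM in parental controls and 23.6, 26.6 and 25.7 TPM after Acetalax, and 22.0, 23.9 and 19.3 TPM in CE controls. The difference was -0.41 ± 0.13 (adjusted p = 0.0294, edgeR) with 11 libraries, and 1.05 ± 0.79 with 12 (adjusted p = 0.459), where CE Acetalax 1 held 271 TPM against 49.5 and 41.4 TPM in its replicates.

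MYC, the growth-promoting transcription factor, fell in parental cells from 333, 327 and 323 TPM to 238, 239 and 233 TPM. CE cells rose from 148, 148 and 138 TPM to 191, 224 and 212 TPM. No library of either treated group reached into its control group, and here CE Acetalax 1 was the lowest of the 3. The difference was 1.09 ± 0.10 (adjusted p = 0.000383, edgeR) and 1.14 ± 0.08 without that library. In the MYC and MAX network, 2 of 11 tested genes were higher and 0 lower, and 5 and 0 without CE Acetalax 1. The other of the 2 was the MAX partner MXD1 (2.31 ± 0.55).

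Feedback genes of the ERK pathway followed. Of 18, 6 were higher and 0 lower, and 11 and 1 without CE Acetalax 1. DUSP6, the cytosolic phosphatase that inactivates ERK, stood at 31.7, 26.7 and 28.4 TPM in parental controls and 15.0, 14.5 and 14.2 TPM under Acetalax. In CE cells it stood at 179, 179 and 170.4 TPM and then 472, 305 and 312 TPM. The directions were opposite in all libraries, with a difference of 2.22 ± 0.21 (adjusted p = 0.000416, edgeR; 1.96 ± 0.08 with 11 libraries). SPRY1, an inhibitor of receptor tyrosine kinase signalling, had 22.4, 24.2 and 23.0 and then 18.4, 18.1 and 14.0 TPM in parental cells. It had 405, 432 and 394 and then 744, 864 and 775 TPM in CE cells, with CE Acetalax 1 the lowest of the 3 treated libraries, and the difference was 1.54 ± 0.15 (adjusted p = 0.00043, edgeR). SPRY4 (1.04), SPRY2 (1.18), the nuclear phosphatase DUSP5 (1.78) and the ETS factor ETV5 (0.43) were the others. DUSP4 was the lower call with 11 libraries (-0.46), at levels up to 0.89 TPM in CE cells.

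Among factors that shorten mRNA life, 9 of 14 were higher and 0 lower with 12 libraries, and 12 and 0 with 11. ZFP36 (tristetraprolin) binds AU-rich elements of early response mRNAs and recruits deadenylases. It was measured at 20.6, 16.6 and 18.6 TPM in parental controls and 21.1, 20.4 and 23.0 TPM under Acetalax, which overlapped, and at 14.4, 14.3 and 14.7 TPM in CE controls and 153, 66.7 and 60.4 TPM in treated CE libraries. The difference was 2.59 ± 0.41 (adjusted p = 0.00411, edgeR) and 2.02 ± 0.12 without CE Acetalax 1. Its relative ZFP36L1 went from 40.3, 39.3 and 36.6 to 74.3, 63.2 and 64.3 TPM in CE cells and overlapped in parental cells (0.97 ± 0.12; adjusted p = 0.00127, edgeR).

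SMG8, a regulator of nonsense-mediated decay, lay below its controls in all treated libraries of both kinds. It went from 18.1, 18.0 and 18.1 to 5.72, 4.90 and 5.31 TPM in parental cells and from 27.8, 28.2 and 27.0 to 10.1, 19.3 and 20.9 TPM in CE cells, and its positive difference of 1.11 ± 0.28 (adjusted p = 0.0354, edgeR) is the smaller drop in CE cells. BTG1 (2.39), TOB1 (0.63), TOB2 (0.39), which slow proliferation and bind the deadenylase complex, and the deadenylation genes CNOT1 (0.61), CNOT6L (0.70) and PAN3 (0.74) were also called higher.

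ID proteins and feedback genes of BMP and TGF-beta signalling gave 9 higher and 0 lower of 17, and 10 and 2 without CE Acetalax 1. ID1, an inhibitor of helix-loop-helix factors and a classic BMP target, stood at 234, 204 and 252 TPM in parental controls and 66.7, 77.8 and 76.6 TPM under Acetalax. CE libraries had 104, 108 and 112 TPM and then 83.7, 113 and 108 TPM. The parental groups were clear of each other and the CE groups overlapped, so the difference of 1.64 ± 0.17 (adjusted p = 0.000584, edgeR; 1.75 ± 0.12 with 11 libraries) stands beside a parental log2 change of -1.67 and a CE change of -0.02.

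HES1, a repressor induced by Notch and other signals, had 105, 102 and 104 and then 78.2, 84.9 and 74.9 TPM in parental cells, and 12.6, 13.4 and 11.8 and then 93.6, 44.3 and 41.3 TPM in CE cells. Treated libraries lay below controls in the first and above them in the second, with a difference of 2.73 ± 0.36 (adjusted p = 0.00174, edgeR; 2.24 ± 0.10 with 11 libraries). TGIF1, a SMAD corepressor, fell in parental and rose in CE cells, at 99.1, 99.8 and 106 and then 55.2, 51.0 and 55.6 TPM in parental cells and 132, 135 and 130.1 and then 352, 211 and 202 TPM in CE cells (1.92 ± 0.25). The inhibitory SMAD7 (1.41), SKIL (1.41), ID2 (0.86), HEY1 (0.70), SMURF2 (0.50) and SMURF1 (0.35) were called higher as well. ID3 (-0.45) and SMAD6 (-0.39) were lower with 11 libraries.

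**Figure D3:**
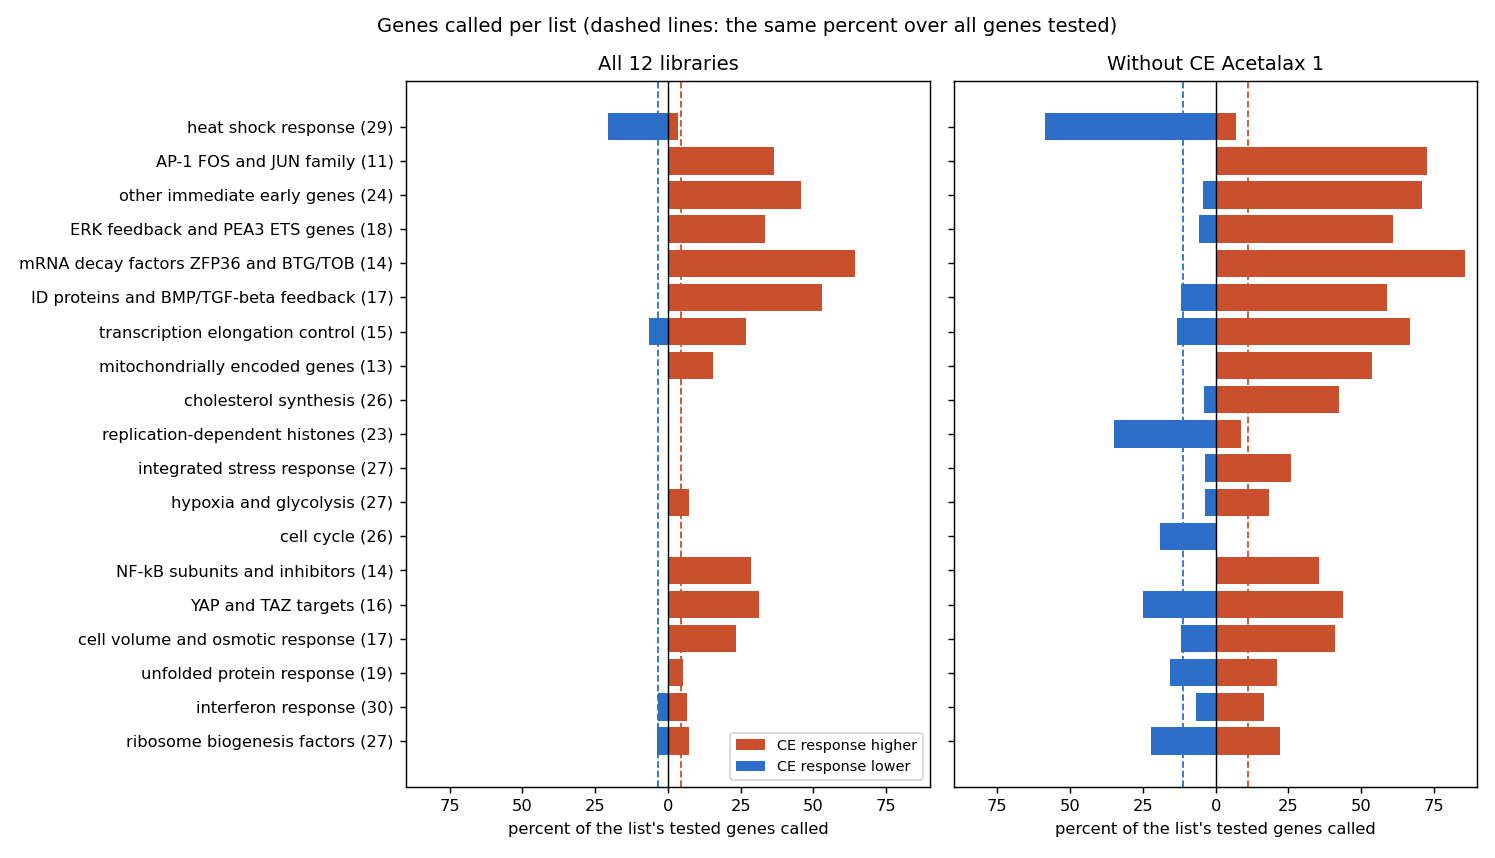
Percent of the tested genes of each list called with a higher (red, to the right) or lower (blue, to the left) CE response, with 12 libraries on the left and 11 on the right, and the number of genes in brackets. Dashed lines mark the percent over all genes tested, 4.59% and 3.44% with 12 libraries and 11.3% and 11.1% with 11. The mRNA decay factors, ID proteins and immediate early genes reach far past them on the higher side, and heat shock genes on the lower side. The lists were chosen with earlier results of these data known, so their distance from the lines is not a test.

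Several of the largest higher differences were in genes whose treated libraries lay below controls in parental cells and above them in CE cells. DNAJB9 is an endoplasmic reticulum cochaperone that restrains the stress sensor IRE1. It stood at 26.2, 29.5 and 24.2 TPM in parental controls, 13.1, 12.7 and 13.9 TPM in treated parental, 9.62, 9.24 and 8.06 TPM in CE controls and 51.8, 26.4 and 26.2 TPM in treated CE libraries. No treated library overlapped its controls, and the difference was 3.13 ± 0.33 (adjusted p = 0.000584, edgeR; 2.72 ± 0.12 with 11 libraries). It was the only call among 19 genes of the unfolded protein response with 12 libraries, and with 11 that list gave 4 higher and 3 lower. The shares over all genes tested were 8.03% and 22.5%.

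HBP1, a repressor that arrests the cell cycle, had 25.2, 27.6 and 29.3 and then 12.5, 10.7 and 10.7 TPM in parental cells. In CE cells it had 23.5, 25.1 and 25.4 and then 111, 44.6 and 41.2 TPM. The controls of the 2 kinds overlapped and the treated groups went apart, by 2.91 ± 0.43 (adjusted p = 0.00315, edgeR; 2.27 ± 0.09 with 11 libraries). KLHL24, a ubiquitin ligase adaptor for keratins, had the same shape, from 34.7, 38.9 and 27.8 to 20.9, 21.9 and 24.7 TPM in parental and from 10.7, 11.0 and 12.5 to 76.2, 25.5 and 27.2 TPM in CE cells (2.67 ± 0.42).

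BCL6, a transcriptional repressor, went from 23.0, 22.0 and 23.4 to 13.8, 13.3 and 16.5 TPM in parental cells and from 4.59, 4.46 and 5.49 to 85.1, 20.2 and 17.7 TPM in CE cells. CE Acetalax 1 exceeded its replicates by far, and the difference was 4.01 ± 0.70 with it and 2.82 ± 0.13 without it (adjusted p = 0.00699 and 1.49e-09, edgeR). CREBRF, a regulator of CREB3 proteins, overlapped in parental cells and stood at 1.48, 1.71 and 1.44 TPM in CE controls and 15.0, 6.14 and 7.11 TPM in treated CE libraries (3.64 ± 0.45; adjusted p = 0.0014, edgeR). THAP2, a zinc-finger gene of low level, was at 2.26 ± 0.20. TRIM73 (2.27 ± 0.25) has near-identical copies, so its counts are uncertain. AC023509.1 and the pseudogene AC104451.1 completed the 12 highest differences ranked by the smaller of the 12- and 11-library values, at 2.91 and 5.55 with 12 libraries, and their counts may be shared with overlapping or similar genes.

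Across all genes expressed in both kinds and called in both analyses, 110 had a called response in each kind of cells and in opposite directions, in both analyses. Responses were called for 7.8% of genes in parental and 8.15% in CE cells with 12 libraries, and for 27.3% and 16.4% with 11. In 77 of them the parental level fell and the CE level rose, and in 33 the reverse held.

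The genes that control elongation by RNA polymerase II, inhibitors of it included, gave 4 higher and 1 lower call of 15, and 10 and 2 with 11 libraries. CCNT1, the cyclin of the elongation kinase P-TEFb, had 17.9, 18.1 and 15.4 and then 10.2, 9.35 and 10.4 TPM in parental cells, against 20.1, 20.7 and 22.0 and then 42.0, 31.0 and 30.4 TPM in CE cells. It fell in the first and rose in the second without overlap (1.64 ± 0.19; adjusted p = 0.000993, edgeR). BRD2, a bromodomain reader of acetylated histones, overlapped in parental cells and stood at 205, 200.0 and 201 TPM in CE controls and 362, 386 and 399.8 TPM under Acetalax (0.98 ± 0.08; adjusted p = 0.000279, edgeR). MEPCE (0.91), which caps the inhibitory 7SK RNA, and CCNT2 (0.66) were higher. CDK9, the P-TEFb kinase, was lower (-0.51 ± 0.12), at 70.8, 78.6 and 71.8 TPM in CE controls and 55.0, 50.6 and 54.5 TPM in treated CE libraries.

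NF-kB subunits and inhibitors gave 4 higher and 0 lower of 14, and 5 and 0 with 11 libraries. NFKBIA, the feedback inhibitor of NF-kB, stood at 31.6, 32.5 and 31.4 TPM in CE controls and at 34.6, 71.8 and 72.3 TPM in treated CE libraries, with CE Acetalax 1 near the controls and the other 2 well above, while parental groups overlapped. Its difference was 1.08 ± 0.28 (adjusted p = 0.0354, edgeR) and 1.34 ± 0.08 with 11 libraries. REL (1.35), BIRC3 (1.37) and NFKB1 (0.42) were the other calls. Of 20 tested chemokine and cytokine genes 3 were higher and 1 lower, and 7 and 2 with 11 libraries. CXCL8 stood at 244, 310.1 and 234 TPM in parental controls and at 0.31, 0.36 and 0.68 TPM in CE controls, and treated CE libraries had 10.8, 1.77 and 1.66 TPM. Its difference of 3.78 ± 0.94 (adjusted p = 0.0325, edgeR) thus compares a change at a high level with one near 0. CSF2 was listed at 0 in the CE controls, and no fold is given. CSF1, a macrophage growth factor, was lower (-1.09 ± 0.19), at 16.5, 15.0 and 16.3 and then 20.2, 21.1 and 22.0 TPM in parental and 2.97, 3.98 and 4.03 and then 2.79, 2.09 and 2.07 TPM in CE cells. In the interferon response 2 of 30 genes were higher and 1 lower, and 5 and 2 with 11 libraries, led by IFI44 (1.23 ± 0.22). The interferon list's share of calls was near that over all genes tested, 8.03% with 12 libraries and 22.5% with 11.

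Target genes of YAP and TAZ gave 5 higher and 0 lower of 16, and 7 and 4 with 11 libraries. Beside CCN1 they were ANKRD1 (1.49), the kinase NUAK2 (1.41), PTPN14 (0.88) and TEAD1 (0.59). Among 17 genes of cell volume and osmotic control, 4 were higher and 0 lower, and 7 and 2 with 11. NFAT5, the factor that induces osmolyte transport in salt stress, overlapped in parental cells and stood at 16.5, 18.1 and 16.1 TPM in CE controls and 32.9, 26.7 and 34.7 TPM under Acetalax (1.34 ± 0.23; adjusted p = 0.00578, edgeR). The chloride-sensing kinase WNK4 (2.14) and the kinase SGK1 (1.01) were among the other calls, WNK4 at no more than 3.74 TPM in any CE library. Of 14 sodium pump and transport genes 1 was higher and 0 lower in both analyses, the pump subunit ATP1B1 (0.53), at 245, 266 and 246 TPM in parental and 3.44, 3.84 and 3.87 TPM in CE controls. Calcium handling gave 1 of 17, the calcium pump ATP2B1 (0.51), and with 11 libraries 4 higher and 4 lower. For these 4 lists the shares over all genes tested were 8.03% with 12 libraries and 22.5% with 11. The sodium and calcium lists lay near that share with 12 libraries, and the sodium list lay below it with 11.

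The 13 genes of the mitochondrial genome gave 2 higher and 0 lower calls, and 7 and 0 with 11 libraries, with median differences of 0.71 and 0.69. MT-CO1, a subunit of cytochrome oxidase, stood at 12368, 15253 and 10643 TPM in parental controls and 7445, 6914 and 5808 TPM under Acetalax. CE libraries had 6206, 7742 and 7183 TPM and then 8814, 8653 and 6342 TPM. The treated parental libraries lay below their controls and the CE groups overlapped (1.16 ± 0.23; adjusted p = 0.013, edgeR). MT-ND4L was the other call (1.06).

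**Figure D4:**
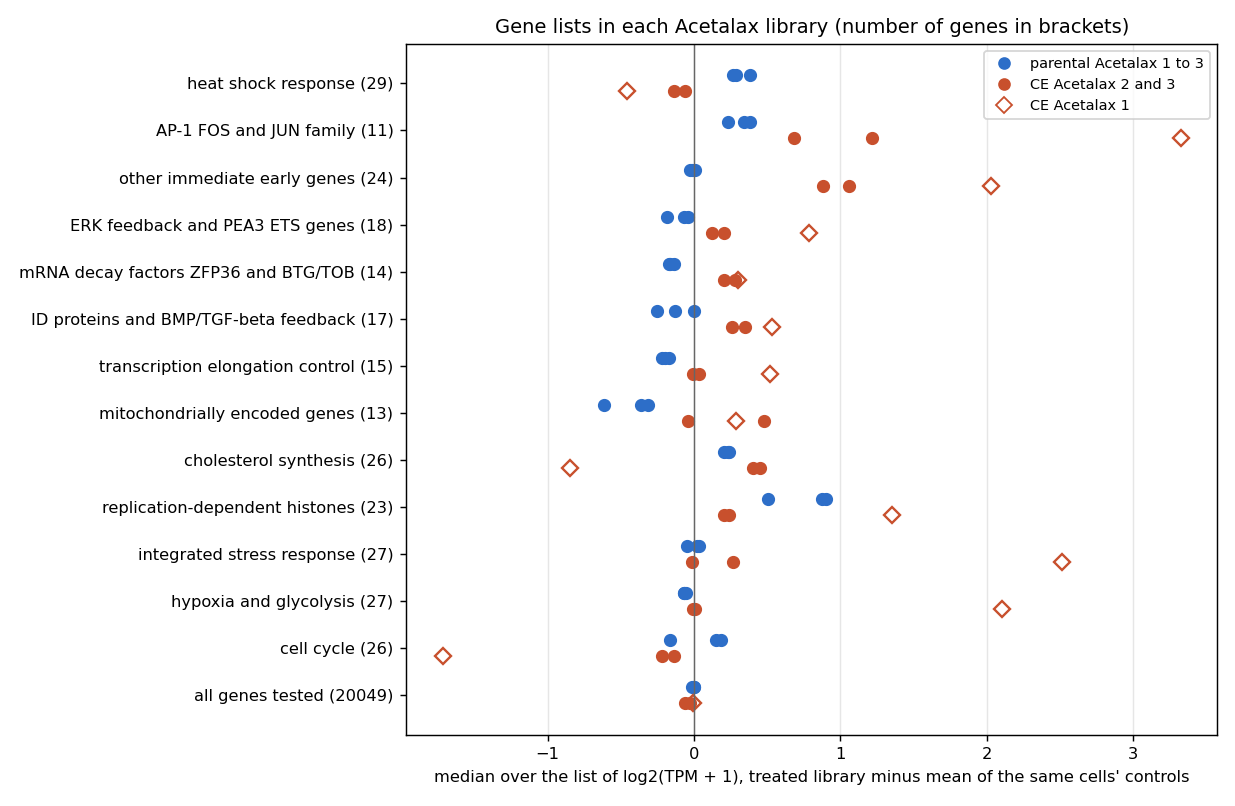
For each treated library, the median over a gene list of log2(TPM + 1) minus the mean of the controls of the same cells, with parental libraries in blue, CE Acetalax 2 and 3 as red circles and CE Acetalax 1 as an open diamond. The diamond lies far from the red circles for the integrated stress response, hypoxia, cell cycle, AP-1 and cholesterol lists, and close to them for mRNA decay factors.

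Several lists depended on CE Acetalax 1. Beside their counts stand 8.03% of all genes tested called with 12 libraries and 22.5% with 11. Of 27 genes of the integrated stress response, the ATF4 programme of amino acid and endoplasmic reticulum stress, 0 were called with 12 libraries (edgeR; 11 at an unadjusted p below 0.05, and 0 by DESeq2), although the median difference was 1.74. The count of 0 depended on the setting. With 12 libraries, 5 genes of the list were higher with the LNCaP libraries in the model. Voom library weights, which weighted CE Acetalax 1 at 0.048, gave 7 higher and 1 lower. Without that library 7 were higher and 1 lower by edgeR, with a median of 0.14. The median of the list over CE controls was 2.51 in CE Acetalax 1, and 0.27 and -0.012 in its replicates. DDIT3, the proapoptotic factor CHOP, stood at 16.7, 14.4 and 14.6 TPM in CE controls and 936, 43.0 and 22.7 TPM in treated CE libraries (1.23 ± 0.25 with 11 libraries, adjusted p = 0.00199, edgeR). ATF4 itself had 279, 268 and 282 and then 1141, 360.4 and 365 TPM in CE cells, against 319, 283 and 319.8 and then 439.6, 439 and 401 TPM in parental cells. It lay above controls in every treated library of both kinds, and with 11 libraries the difference was -0.02 (95% interval -0.21 to 0.17). SESN2 was the lower call with 11 (-1.27).

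Hypoxia and glycolysis genes gave 2 higher and 0 lower of 27, and 5 and 1 with 11 libraries, while their median went from 1.23 to 0.14. The list's share of calls was near that over all genes tested, 8.03% with 12 libraries and 22.5% with 11. In CE Acetalax 1 that list lay at 2.10 over CE controls, and at -0.0041 and 0.009 in the replicates. KDM3A, a histone demethylase induced by hypoxia, had 30.5, 29.9 and 30.7 TPM in CE controls and 154, 42.9 and 39.9 TPM under Acetalax (2.08 ± 0.58; 1.13 ± 0.09 with 11 libraries). TXNIP, an inhibitor of glucose uptake, fell in parental cells from 477, 472 and 440.1 to 196, 192 and 188 TPM. CE cells held 14.8, 15.3 and 14.4 and then 27.1, 13.5 and 12.7 TPM, high in CE Acetalax 1 and below controls in the other 2 (1.53 ± 0.33; 1.05 ± 0.08 with 11).

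Cholesterol synthesis showed the reverse dependence. Of 26 genes 0 were called with 12 libraries (edgeR; 3 at an unadjusted p below 0.05, and 1 higher by DESeq2), and 11 higher and 1 lower with 11 libraries. Voom library weights gave 10 higher and 1 lower with 12 libraries. MSMO1, an enzyme that removes methyl groups from sterol precursors, had 40.4, 53.9 and 39.9 and then 115, 102 and 118 TPM in parental cells. CE cells held 24.0, 24.8 and 24.8 and then 19.5, 127 and 128 TPM, with CE Acetalax 1 below the CE controls and the other 2 far above them. The difference was 1.04 ± 0.67 with 12 libraries (adjusted p = 0.378, edgeR) and 1.52 ± 0.13 with 11 (adjusted p = 1.68e-06). The sterol sensor gene INSIG1 was at 0.38 with 11 libraries, and LSS was the lower call (-0.39).

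Replication-dependent histone genes gave 0 calls of 23 with 12 libraries (edgeR; 2 at an unadjusted p below 0.05, and 0 by DESeq2) and 2 higher and 8 lower with 11. Voom library weights gave 2 higher and 8 lower histone genes with 12 libraries. H2BC21 had 20.4, 21.2 and 16.6 and then 101, 92.1 and 83.0 TPM in parental cells, and 3.63, 3.35 and 3.14 and then 15.9, 4.67 and 4.28 TPM in CE cells (-1.80 with 11 libraries). Most histone mRNAs lack a poly(A) tail, so poly(A) selection captures a part of them only. Of 26 cell cycle genes 0 were called with 12 (edgeR; 2 at an unadjusted p below 0.05, and 1 lower by DESeq2), and 0 higher and 5 lower with 11, CCND1 (-0.40), CCND3 (-0.89), E2F1 (-0.40), E2F2 (-0.98) and RRM2 (-0.48). Voom library weights gave 0 higher and 2 lower cell cycle genes with 12 libraries. In CE Acetalax 1 the list lay at -1.72 against CE controls. PCNA, the replication clamp, stood at 251, 239.6 and 247 TPM in CE controls and 36.2, 208 and 223 TPM in treated CE libraries.

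Among the largest lower differences were also RNAs that poly(A) selection and alignment measure poorly. The 5.8S ribosomal RNA, at 4 annotated copies with equal values, and the small nucleolar RNAs SNORD3A (-3.10) and SNORA73B (-1.98) rose in parental libraries, and their CE groups overlapped. They are uncertain, as are the clone-based genes AC006064.6 (-3.75) and CU633906.1 (-1.70). PYCR3, an enzyme of proline synthesis, stood at 9.16, 6.78 and 9.19 and then 16.5, 16.1 and 14.6 TPM in parental cells and at 32.9, 30.7 and 32.6 and then 9.60, 20.2 and 20.7 TPM in CE cells. Its directions were opposite in every library (-1.77 ± 0.31; adjusted p = 0.00723, edgeR; -1.50 ± 0.13 with 11 libraries).

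In each of the remaining lists at most 3 genes were called with 12 libraries, against 8.03% of all genes tested. With 11 libraries, 8 of 15 genes of fatty acid synthesis and 12 of 27 ribosome biogenesis factors were called, against 22.5% of all genes. With 12 and then 11 libraries, higher and lower calls were 2 and 1, then 6 and 6 of 27 ribosome biogenesis factors, among them the lower BOP1 (-0.97) and the higher POLR1B (0.62). They were 2 and 1, then 4 and 4 of 20 p53 targets, where the proapoptotic BBC3 was higher (1.49 ± 0.25) and PHLDA3 lower (-0.64). BBC3 was also the 1 higher call of 19 BCL2 family and death genes, and the survival gene BCL2L1 the 1 lower (-0.52), with 4 and 1 for 11 libraries. Fatty acid synthesis gave 2 and 1, then 5 and 3 of 15, with SCD (0.54) and LPIN1 (0.49) higher and ACSL1 lower (-0.55). NRF2 targets gave 1 and 1, then 3 and 1 of 18, with GCLC (0.54) higher and SRXN1 (-0.42) lower. Lysosome and autophagy genes gave 1 and 0, then 8 and 0 of 24, led by FNIP1 (1.95). Drug metabolism and efflux genes gave 2 and 0 of 10, then 4 and 1 of 11, with TIPARP (1.18 ± 0.14) and its regulator AHR (0.90), which held at most 0.77 TPM in CE cells. Metallothionein and zinc transport genes gave 0 of 7 in both (edgeR and DESeq2, with 0 at an unadjusted p below 0.05).

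Of 17 epithelial markers 1 had a higher CE response with 12 libraries, OVOL1, which lay at 0.05 to 0.69 TPM in CE cells. With 11 libraries 2 were higher and 2 lower. Over all genes tested, 4.59% were higher with 12 libraries, and 11.3% were higher and 11.1% lower with 11. The fibroblast sum in CE cells was 3150 to 3157 TPM in controls and 2626 to 3258 TPM under Acetalax, and the epithelial sum 30.1 to 33.8 and 27.7 to 43.8 TPM. The neuroendocrine sum in CE cells was 42.0 to 43.3 TPM in controls and reached 292.7 TPM under Acetalax, carried by the glycolytic enzyme ENO2 at 278 TPM in CE Acetalax 1 against 36.7 and 29.1 TPM in its replicates. The part of these markers in the results was not tested.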

How the data were processed

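RNA of 12 libraries labelled PC3 was analysed, 3 per group, grouped by the labels; the parent line of the 6 labelled CE is in doubt. Per the labels' protocols, poly(A) RNA was made into strand-directional libraries and sequenced on an Illumina NextSeq. The submitters' processing notes list FastQC, STAR 2.7, RSEM and the build GRCh38. Neither the strand setting of the counting nor its annotation is given in the sources used here, so antisense and overlapping genes are uncertain. The authors deposited RSEM expected counts and TPM for 60660 features. TPM are scaled for transcript length and to a fixed total; expected counts are estimates that are not normalized. A single column (1) of either table belonged to no library and was not used. Identifiers matched GENCODE 29 for 58429 features.

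Expected counts, of which 10.2% were not whole, were rounded and tested in R 4.3.3 with edgeR 4.0.16 (quasi-likelihood, TMM scaling, filterByExpr with a minimum count of 10, 1 coefficient per group, two-sided, Benjamini-Hochberg adjusted p below 0.05 over all genes tested). Errors of log2 differences are standard errors. TPM gave levels. The script was tested on simulated data. Totals of 40160832 to 57560358 counts per library set the counting precision. Replicates were compared by chi-square per degree of freedom, which was 3.98 to 263, so no library was counted as a repeat of another.

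Named are the 12 largest higher and 12 largest lower differences called with the same sign with and without CE Acetalax 1 at a mean of at least 5 TPM in a group of each kind, ranked by the smaller of the 2 absolute values, TRPM4, and up to 4 called members of each of 38 lists; other members were named after their values were seen. Some genes of these lists are not reported here. Members and lists were chosen with earlier results of these data known. Alternatives were RLE scaling, no filter, DESeq2 1.42.0, a replicate block, limma 3.58.1 on log2(TPM + 1) or log2(TPM + 0.1), all 24 libraries, voom with library weights, and leaving out each library. Repeating these without CE Acetalax 1 was chosen after seeing the data.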

Additional observations from a re-analysis of the deposited data

Results flagged for a closer look

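The interaction tests a difference between the 2 kinds of cells directly, and the counts of 1610 genes with 12 libraries and 4594 without CE Acetalax 1 are differences of that kind. Among the 89 genes named by the rule and called in both analyses, 13 also had a called response in each kind of cells. These responses went in opposite directions, both with and without CE Acetalax 1. The same held for 110 of all 1183 genes expressed in both kinds and called in both analyses. The 89 were chosen largely by the size of their difference, so their share is described and not tested. In 11 of the 13 the parental level fell and the CE level rose. With 12 libraries these differences were 3.13 for DNAJB9, 2.91 for HBP1, 2.26 for THAP2, 2.22 for DUSP6, 1.92 for TGIF1, 1.64 for CCNT1, 1.545 for SPRY1, 1.35 for REL, 1.23 for IFI44, 1.18 for TIPARP and 1.09 for MYC. In the other 2 the parental level rose and the CE level fell, with -1.77 for PYCR3 and -1.09 for CSF1. For SPRY1, IFI44 and MYC CE Acetalax 1 was the lowest of the 3 treated CE libraries. For DNAJB9, HBP1, DUSP6 and TGIF1 CE Acetalax 1 was the highest treated library, and without it the differences were 2.72, 2.27, 1.96 and 1.60.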

How the results depend on the processing

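With 12 libraries the count of 1610 differing genes (921 higher, 689 lower) stayed within 1.5 times under RLE scaling (1589), with all 24 libraries (1503), without the filter on low counts (1178, of which 452 lower) and on log2(TPM + 1) (1221, of which 445 higher). It was 2642 by DESeq2 (1440 higher, 1202 lower), 4761 with voom library weights (2422 higher, 2339 lower), 986 on log2(TPM + 0.1) (379 higher) and 839 on TPM without a filter (320 higher). Leaving out 1 library gave 758 to 4594 calls, 461 to 2321 higher and 297 to 2273 lower, the lowest without parental Acetalax 2 and the highest without CE Acetalax 1; the count dropped by more than 1.5 times without parental control 1, any treated parental or any CE control library. With 11 libraries the count of 4594 (2321 higher, 2273 lower) was 2878 on log2(TPM + 0.1) (1035 higher), 2570 on TPM without a filter (931 higher) and 1786 with the LNCaP libraries in the model (1002 higher, 784 lower), and 1125 genes were higher on log2(TPM + 1). Leaving out a further library gave 2991 to 5056 calls, 1763 to 2676 higher and 1228 to 2451 lower, the lowest without CE Acetalax 3. The cause of these shifts was not tested.

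Same-numbered replicates did not deviate together (18 pairs, correlations of -0.0462 to 0.0329, and 2 of 12 libraries best with their own number), so no pairing by number was detected. These values cannot show whether the samples were handled in numbered sets. With the number as a replicate block 1007 genes were called with 12 libraries (594 higher, 413 lower) and 3809 with 11.

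Of 89 genes called in both analyses and named by the rule, 25 kept their call under all 21 alternatives with 12 libraries and 45 under all 20 with 11, among them TRPM4, HSPA6, HSPA1B, DNAJB1, CCN1, ZFP36, DUSP6 and ID1. The others lost it under at least 1 alternative, and 0 reversed. COL3A1, near 0 in parental cells, ranged from -1.592 to 0.5298 with 12 libraries and from -1.488 to 0.6556 with 11 when 1 library was left out, and reversed without parental control 3 (adjusted p = 0.0484 and 0.0145, edgeR). FOS, FOSB, EGR2, NR4A3, KLF10, BTG1, SMG8, SPRY2, ANKRD1 and NFKBIA lost their 12-library call when any of several parental or CE control libraries was left out, and were called with 11 libraries. Medians of heat shock, AP-1, early gene, mRNA decay and ID lists kept their sign under every scaling, filter, tool and unit run. Those of several other lists did not. Among these were histones, cholesterol synthesis, fatty acid synthesis, TRPM channels, NF-kB, chemokines, calcium handling and ribosome biogenesis. The p53, BCL2 family, epithelial and fibroblast lists also changed sign. Depth limits genes near 0 in one kind of cells, such as EGR2, CXCL8 and CSF2.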
